A study of Triticum aestivum with 3 samples.

Results

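The miR171 family of wheat (Triticum aestivum) leaves was taken as every row of the deposited miRNA table that is named miR171 or MIR171 with any prefix or suffix, with 1 entry kept per distinct sequence. This gave 40 rows and 34 entries of the 1896 distinct sequences in the table. Leaves of wheat seedlings were sampled after 2 days in 3 groups. These were control, treatment with DTT, and joint treatment with DTT and TUDCA. DTT (dithiothreitol) reduces disulfide bonds, which impairs protein folding in the endoplasmic reticulum. TUDCA (tauroursodeoxycholic acid) is a bile acid that eases such folding stress as a small-molecule chaperone. Each group is 1 sample, read as 2 RNA pools that were mixed from its biological replicates, and no source used here gives the cultivar, the doses or the division of plants between pools. The pools are treated as repeat runs of 1 sample, so every ratio between treatments describes these libraries and no test between treatments was run.

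In plants, miR171 guides the cleavage of mRNAs for GRAS-domain transcription factors of the HAIRY MERISTEM group, also called SCARECROW-LIKE (SCL). These factors act in shoot meristem maintenance and branching in Arabidopsis, and in barley miR171 affects the timing of vegetative phase change. The active strand, or guide, is cut from the 3′ arm of the hairpin precursor, and the opposing strand of the 5′ arm is the passenger. Many plants carry guides in a pair of registers on the same sequence core, and the start of a guide sets its seed, which is bases 2 to 8.

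The entries below, written as DNA in the deposited table, carry most of the family's reads or the differences between its forms. Capitals mark the seed. The first pair are the main guides, which share a seed.
osa-miR171a: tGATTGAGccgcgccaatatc
tae-miR171a: tGATTGAGccgtgccaatatc
The next guides start 3 bases further into the core, and differ from each other near the 3′ end.
zma-miR171b-3p_R+2_1: tTGAGCCGtgccaatatcacgt
zma-miR171b-3p_R+2_2: tTGAGCCGtgccaatatcactt
The next are a guide that lacks the first base of osa-miR171a and a guide in which the core continues differently.
bdi-miR171a_L-1: gATTGAGCcgcgccaatatc
bdi-miR171f_1ss20CT: tGAGCCGAaccaatatcactc
The last are the 3 most abundant passenger strands.
aly-miR171c-5p: aGATATTGgtgcggttcaatc
osa-miR171e-5p_2ss2GA21AG: tATTGGCTcggctcactcagg
tae-MIR171a-p5: tGTTGGCTcgactcactcaga

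A name gives the species from which the sequence was registered, such as osa for rice, tae for wheat, ata for Aegilops, zma for maize, bdi for Brachypodium and aly for Arabidopsis lyrata. It does not give the source of the reads, and suffixes give what was altered against the registry, with L or R for an end and ss for a substitution. With positions counted from 1 at the 5′ end, tae-miR171a differs from osa-miR171a by C12T alone. The longer guides zma-miR171b-3p_R+2_1 and zma-miR171b-3p_R+2_2 differ by G21T.

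The table places osa-miR171a on 3 TGACv1 wheat scaffolds. These are scaffold 556705 of chromosome arm 7AL (minus strand, 38795 to 38885), scaffold 580550 of 7BL (plus strand, 5689 to 5766) and scaffold 499416 of 6BL (plus strand, 136086 to 136205). On the 6BL scaffold the same sequence is listed as the 5′ arm product bdi-MIR171a-p5, and on the others as a 3′ product. The wheat form tae-miR171a lies on scaffold 374177 of 5AL (plus strand, 65449 to 65578), in 1 interval with its passenger tae-MIR171a-p5, and as bdi-miR171b on scaffold 157983 of 2DL (plus strand, 91547 to 91684). bdi-miR171f_1ss20CT lies on scaffold 158100 of 2DL (minus strand, 151797 to 151887). The passenger aly-miR171c-5p has no wheat position in the table. The same sequence without its first base, osa-miR171c-5p_L-1, is placed as the 5′ product of the interval whose 3′ product is zma-miR171b-3p_R+2_1. Gene annotation around these intervals was not used here.

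The 34 entries hold 23 guides with the 6-base core GAGCCG, 6 passenger forms with CTCACTCAG or GGTTCAATC, and 5 sequences with neither motif. Each motif was searched on the strand of the entry itself. Guides are classed by the core and not by the listed arm. The entries mtr-miR171c_L-3R+1 and mtr-MIR171c-p5_1ss16AT hold the core but are listed as 5′ products. The 5 without a motif are the 3 fve-MIR171d-p5 variants, lus-MIR171g-p5_2ss15AC17GT and ata-MIR171a-p5, and only ata-MIR171a-p5 comes from an interval that also gave a guide with the core. Of the 34, 8 are in the registered form, 18 differ from it and 8 are listed as new products of known precursors. Grass names are on 17 entries, and 5 of these are tae or ata. Of the 34 rows of the family with a position, 7 lie in intervals under 60 bases, and 24.8% of all 1688 placed rows of the table do.

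Pools of 1 treatment differed in makeup before any comparison of miR171. A list of 185 grass-enriched entries, chosen by family number, took 1.73% and 5.47% of all reads in control, 1.83% and 6.88% under DTT, and 15.2% and 1.21% under DTT+TUDCA (pools 1 and 2 in this order, as for all pairs of values here). A list of 85 entries from families known from crucifers, the plant family of Arabidopsis, took 4.42% in DTT+TUDCA pool 1 and 8.23% to 9.93% in the other pools. DTT+TUDCA pool 1 therefore stands apart, and results that rest on it are given with and without it. It was the highest pool for 45.0% of the 885 entries of the table above 0 in all pools. The same held for 6 of the 17 miR171 entries above 0 in all pools. The implied depth was 330652 to 1211766 reads per pool, and 1 read was worth 0.516 to 1.70 normalized reads.

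The family as a whole was level across the pools. These are whole leaves, so fewer cells that make a miRNA and less of it per cell cannot be told apart. Its entries summed to 5518 and 4730 normalized reads in control, 6712 and 4985 under DTT, and 5835 and 5822 under DTT+TUDCA. The highest pool was 1.42-fold above the lowest, and the share of all reads was 0.836% to 1.05%. Among 329 numbered families, miR171 ranked 16 by its mean. Both DTT+TUDCA pools lay above both control pools, and the DTT pools overlapped with each of the other treatments. The sums of miR156, miR160, miR164 and miR167 also lay above control without overlap under DTT+TUDCA, and that of miR319 lay below. Those of miR157, miR159, miR166, miR169, miR172 and miR396 overlapped, so the lack of overlap is not particular to miR171.

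osa-miR171a, the guide form registered from rice, was the most abundant entry in all 6 pools. It was at 3160 and 2736 normalized reads in control, 4620 and 2704 under DTT, and 2423 and 3776 under DTT+TUDCA. Its highest pool is DTT pool 1, its lowest is DTT+TUDCA pool 1, and all treatments overlap. The values stand on 1612 to 7322 implied reads, which are not all whole. The source of the fractions was not tested.

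tae-miR171a, the guide registered from wheat, came next at 1015 and 942 in control, 917 and 1035 under DTT, and 2242 and 780 under DTT+TUDCA. It was close across the control and DTT pools, and DTT+TUDCA holds both its highest and its lowest pool. Together, osa-miR171a and tae-miR171a made up 74.99% to 82.5% of the family in each pool, as the entries are listed.

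The guides that start 3 bases later were at lower levels. zma-miR171b-3p_R+2_1 was at 512 and 334 in control, 388 and 461 under DTT, and 264 and 453 under DTT+TUDCA, so all treatments overlap. zma-miR171b-3p_R+2_2 holds exactly the same 6 values, so both names list the same reads and the family sum counts them 2 times. With identical values merged, the family summed to 4396 to 6324 normalized reads per pool, and osa-miR171a and tae-miR171a made up 82.6% to 87.6% of it.

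**Figure D1:**
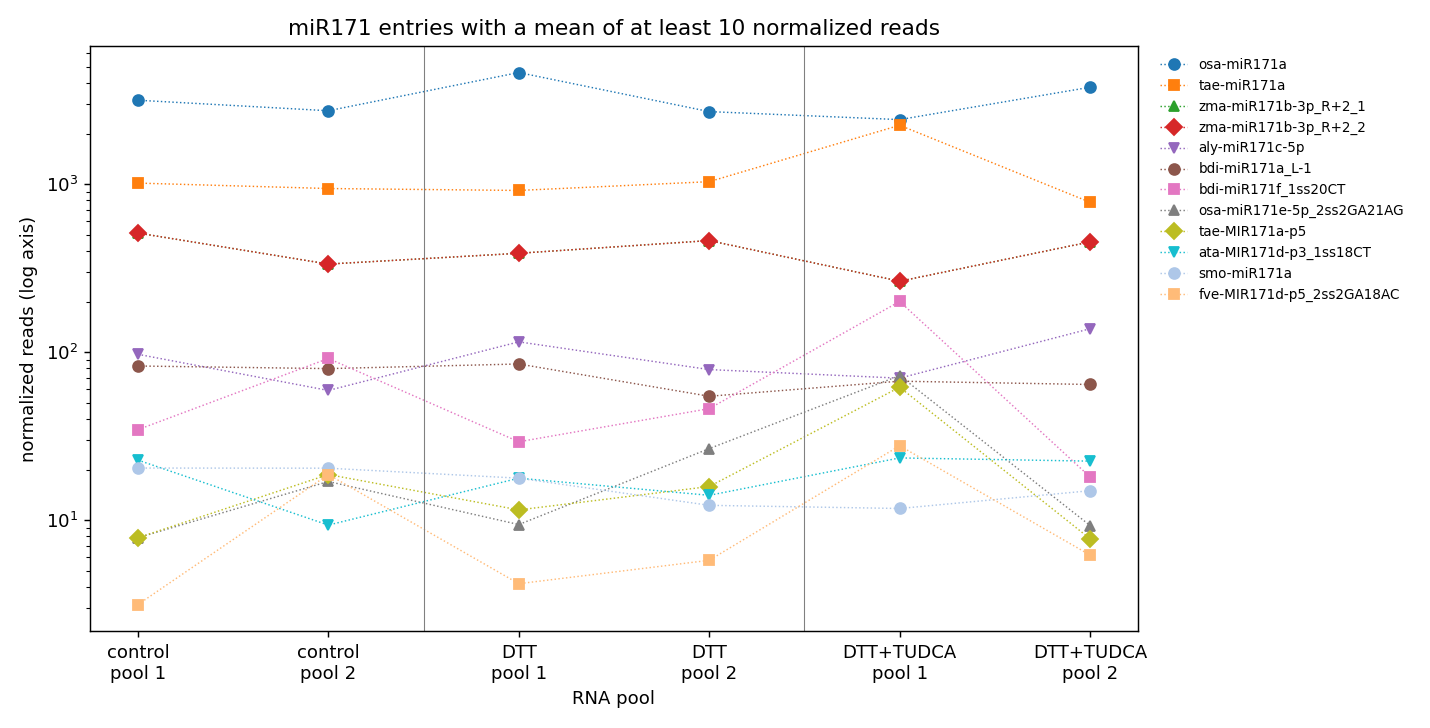
Normalized reads (log axis) of the 12 miR171 entries with a mean of at least 10, in each of the 6 RNA pools. Points are single pools, dotted lines only join the points of 1 entry, and grey lines part the treatments. zma-miR171b-3p_R+2_1 lies under zma-miR171b-3p_R+2_2, which has the same values. tae-miR171a, bdi-miR171f_1ss20CT, osa-miR171e-5p_2ss2GA21AG and tae-MIR171a-p5 peak in DTT+TUDCA pool 1, where osa-miR171a is at its lowest. Of all 885 entries of the table above 0 in every pool, 45.0% peak in that pool.

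The next 3 entries in the order of levels overlap with each other. The passenger aly-miR171c-5p was at 97.1 and 59.1 in control, 115 and 78.7 under DTT, and 70.0 and 138 under DTT+TUDCA. bdi-miR171a_L-1, the main guide without its first base, was at 82.7 and 79.8, 85.0 and 54.6, and 67.1 and 64.2, in the same order. The control pools of bdi-miR171a_L-1 lie above both DTT+TUDCA pools, by 1.24-fold on the sums. The same holds for smo-miR171a, given below, by 1.51-fold. The share of all entries that lie apart at such small folds is not given here. bdi-miR171f_1ss20CT, the guide whose core continues differently, was at 34.5 and 91.6, 29.3 and 46.1, and 200 and 18.0. Its pools spread by 11.1-fold, with DTT+TUDCA pool 1 at the top and pool 2 at the bottom. Above these 3, the order osa-miR171a, tae-miR171a, zma-miR171b-3p_R+2_1 held in every pool.

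The passengers tae-MIR171a-p5 and osa-miR171e-5p_2ss2GA21AG were low in all pools but 1. tae-MIR171a-p5 was at 7.85 and 18.7 in control, 11.5 and 15.8 under DTT, and 61.8 and 7.74 under DTT+TUDCA. osa-miR171e-5p_2ss2GA21AG was at 7.85 and 17.0, 9.40 and 26.6, and 72.5 and 9.28, in the same order. In both, DTT+TUDCA pool 1 is the highest pool, and the remaining pools lie between 7.74 and 26.6.

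ata-MIR171d-p3_1ss18CT, a shortened guide under an Aegilops name, was at 22.8 and 9.33 in control, 17.8 and 14.04 under DTT, and 23.4 and 22.4 under DTT+TUDCA. smo-miR171a, a guide form registered from Selaginella, was at 20.4 in both control pools, 17.8 and 12.2 under DTT, and 11.7 and 15.0 under DTT+TUDCA. ata-MIR171a-p5, the 5′ product beside bdi-miR171f_1ss20CT, was listed at 0 in 4 pools, at 1.44 in DTT pool 2 and at 4.26 in DTT+TUDCA pool 1. A mean under 10 normalized reads was found for 22 of the 34 entries, and 17 were listed at 0 in at least 1 pool. gma-miR171b-3p, under a soybean name, was above 0 in DTT pool 1 alone, at 14.6.

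By seed, the family falls into 17 groups with very unequal shares. The 5 entries with the seed of osa-miR171a and tae-miR171a held 75.2% to 82.9% of the family's normalized reads. The 9 entries that start 3 bases later held 10.1% to 19.7%, lowest in DTT+TUDCA pool 1 and highest in control pool 1. With the shared reads of the zma-miR171b-3p_R+2 names counted once, these shares were 82.9% to 88.0% and 5.80% to 11.5%, with the lowest and highest pools of the later start as before. The 3 entries with the seed of bdi-miR171f_1ss20CT held 0.310% to 3.53%. Guides as a class took 95.1% to 97.8% and passengers 2.07% to 3.70%, with DTT+TUDCA pool 1 lowest for guides and highest for passengers. Entries of 21 bases held 79.0% to 87.6%, and entries of 22 bases 9.36% to 18.7%. Counted once, they held 87.0% to 91.8% and 5.06% to 10.4%.

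**Figure D2:**
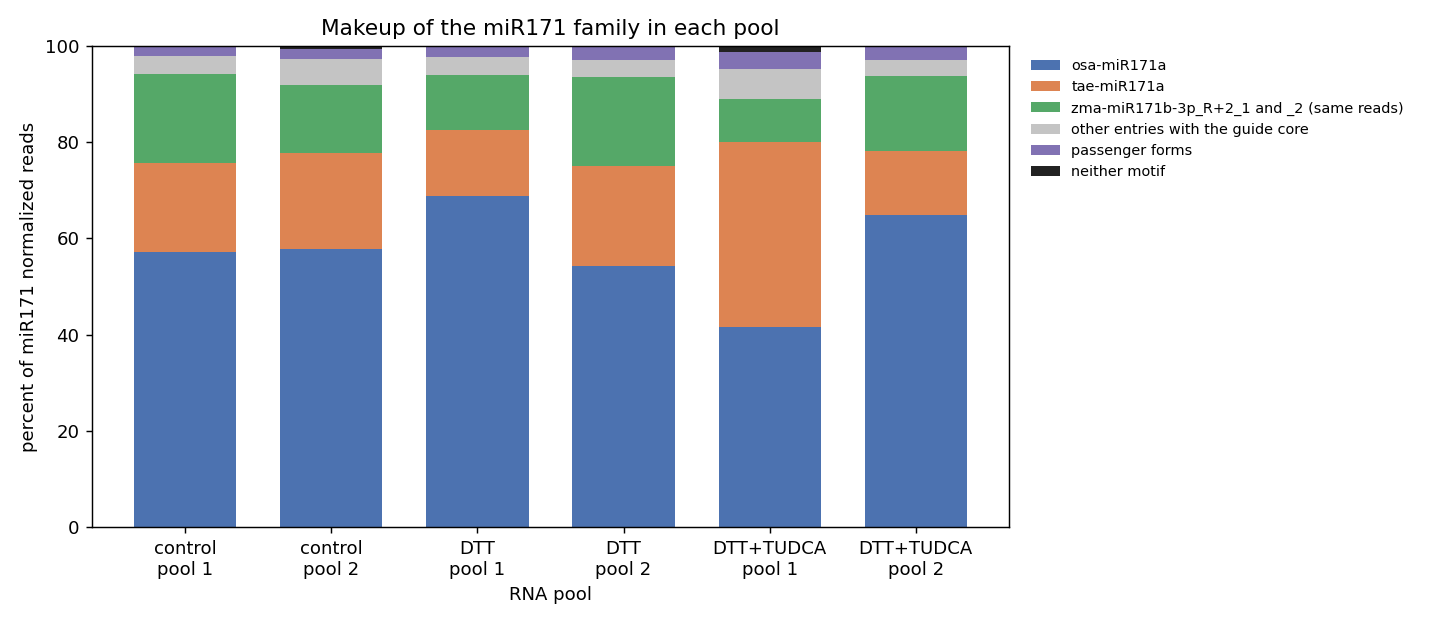
Percent of the miR171 normalized reads in each of the 6 RNA pools, stacked by form. osa-miR171a takes 41.5% in DTT+TUDCA pool 1 and 54.2% to 68.8% in the other pools, and tae-miR171a takes 38.4% there and 13.4% to 20.8% elsewhere.

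The ratio of the main guides within a pool does not depend on how pools are scaled. osa-miR171a over tae-miR171a was 3.11 and 2.90 in control, 5.04 and 2.61 under DTT, and 1.08 and 4.84 under DTT+TUDCA. The control pools lie close together, while each treated group holds 1 pool above them and 1 pool below, so the treatments overlap. DTT+TUDCA pool 1, with near-equal amounts of both guides, also has the highest grass-enriched share at 15.2% and the lowest crucifer share at 4.42%. The pools with the highest ratios, DTT pool 1 and DTT+TUDCA pool 2, have grass-enriched shares of 1.83% and 1.21%. Their crucifer shares of 8.23% and 8.98% lie below the 9.46% and 9.93% of the control pools. The part of pool makeup in the ratio was not tested.

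**Figure D3:**
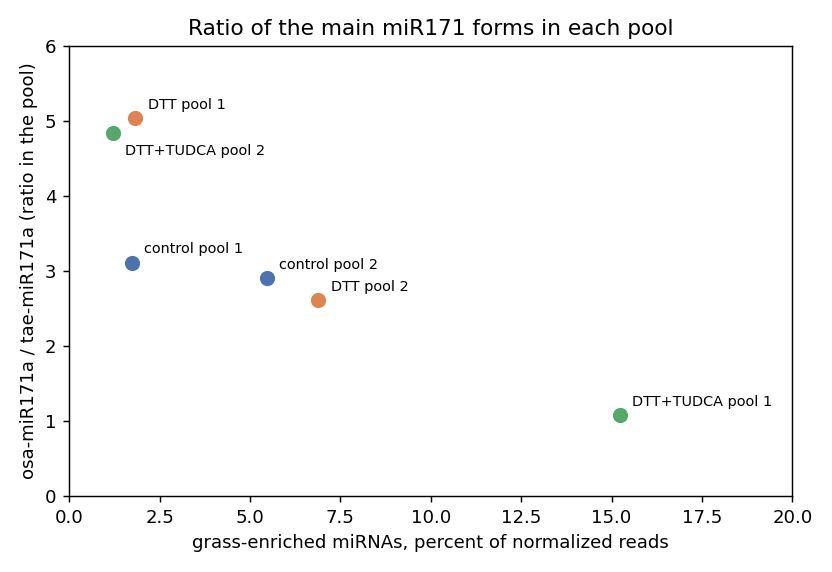
Ratio of osa-miR171a to tae-miR171a in each RNA pool against the percent of normalized reads taken by the grass-enriched list. Each point is 1 pool, coloured by treatment. The ratio is 5.04 and 4.84 at shares of 1.83% and 1.21%, and 1.08 at a share of 15.2%.

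Other ratios within a pool moved differently. bdi-miR171a_L-1 was 1.70% to 2.92% of osa-miR171a in all pools, a spread of 1.72-fold. The passenger tae-MIR171a-p5 was 0.773% and 1.98% of its guide tae-miR171a in control, 1.25% and 1.53% under DTT, and 2.76% and 0.991% under DTT+TUDCA. DTT+TUDCA pool 1 again holds the highest of these values, on 58 implied reads of the passenger, and the treatments overlap. aly-miR171c-5p was 17.1% to 30.4% of zma-miR171b-3p_R+2_1, with the control pools at 19.0% and 17.7%. Apart from tae-miR171a (C12T), forms that differ from osa-miR171a by 1 substitution stayed low beside it. cca-miR171 (G13A) was 0.124% to 0.294% of it, vvi-miR171h (A3G) at most 0.158% and sbi-miR171g_1ss14CT (C14T) at most 0.362%.

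Among entries outside the family with a mean of at least 100 normalized reads, those closest to osa-miR171a over the 6 pools were ata-miR166a-3p, ath-miR822-5p and ath-miR166a-3p_2ss17TC21CA. Pearson's r of the log2 values was 0.98 for each, over 217 entries compared. ata-miR166a-3p, which targets HD-ZIP III factors, was at 25131 and 20344, 34797 and 19335, and 16211 and 30236. Like osa-miR171a, it was highest in DTT pool 1 and lowest in DTT+TUDCA pool 1. So was ath-miR822-5p, whose family is in the crucifer list, at 1348 and 1093, 2085 and 959, and 844 and 1894. For tae-miR171a, a search added after its values were seen gave gma-miR6300_R+2 (r = 0.999), ata-miR168-3p (r = 0.973) and tae-miR9676-5p (r = 0.963). tae-miR9676-5p, a wheat-lineage miRNA, was at 94.2 and 132 in control, 81.5 and 202 under DTT, and 945 and 54.7 under DTT+TUDCA. These likenesses rest on 6 pools that share 3 samples and on the makeup of each pool, and are given as a description.

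The first comparison, between DTT and control, concerns the effect of DTT alone. The abundant miR171 forms differed little on the summed pools, and the entries past 2-fold were rare ones. osa-miR171a was 1.24-fold higher with DTT, with a log2 ratio of 0.31, and tae-miR171a and zma-miR171b-3p_R+2_1 had log2 ratios of -0.003 and 0.005. Without DTT pool 1 the ratio of osa-miR171a was -0.12, so its direction rests on that pool. bdi-miR171f_1ss20CT was 1.67-fold lower with DTT, with overlapping pools, and aly-miR171c-5p 1.24-fold higher. Without control pool 2 their log2 ratios went from -0.74 to 0.12 and from 0.31 to -0.002. That of bdi-miR171f_1ss20CT was -1.27 without control pool 1. The family sum had a log2 ratio of 0.19, and -0.04 without DTT pool 1.

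Of 17 miR171 entries with at least 20 normalized reads over the 4 pools, 3 were at least 2-fold higher and 1 was lower. Across all 958 measured entries, 16.8% were higher and 10.2% lower. The median log2 ratio was 0.01 for the 17 entries and 0.08 for all 958. The 3 higher entries also had pools that did not overlap, which held for 13.3% of all entries (8.14% were lower without overlap). The number of lower miR171 entries was 3 without control pool 1 and 2 without DTT pool 2, against 18.9% and 17.6% of all entries, and 0 without control pool 2 or DTT pool 1, against 10.5% and 15.3%. Ratios are log2 ratios of summed pools with a pseudocount of 1, which shrinks those of low entries.

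The 3 higher entries are near relatives of osa-miR171a at a few reads per pool.
sbi-miR171g_1ss14CT: tGATTGAGccgcgtcaatatc
cca-miR171: tGATTGAGccgcaccaatatc
ata-miR171b-3p_L+4_1ss16TC: gATCTGATtgagccgcgccaatatc
ata-miR171b-3p_L+4_1ss16TC, extended at its 5′ end, was listed at 0 and at 3.39 in the control pools and was at 12.5 and 14.04 with DTT. sbi-miR171g_1ss14CT was at 3.14 and listed at 0 in control, against 16.7 and 4.32 with DTT. Their log2 ratios of 2.65 and 2.41 rest on 2 implied reads in all of control. cca-miR171 was at 4.71 and 3.39 in control, against 13.6 and 5.04 with DTT, 2.16-fold on the sums. All 3 were above their control pools in both DTT pools. Without DTT pool 1, sbi-miR171g_1ss14CT and cca-miR171 fell below 20 normalized reads and were not measured, and without control pool 2 the log2 ratio of cca-miR171 was 0.91. ata-miR171b-3p_L+4_1ss16TC was at 1.82 without control pool 1. The lower entry, fve-MIR171d-p5_2ss2GA18AC, lacks both motifs and had overlapping pools, at 3.14 and 18.7 in control and 4.18 and 5.76 with DTT.

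The second comparison, between DTT+TUDCA and DTT, concerns what TUDCA added. The wheat guide, the bdi-miR171f guide and the passengers tae-MIR171a-p5 and osa-miR171e-5p_2ss2GA21AG had larger sums under DTT+TUDCA through pool 1, while osa-miR171a was slightly lower. tae-miR171a was 1.55-fold higher, from 1952 to 3023 summed normalized reads, and osa-miR171a 1.18-fold lower. Their log2 ratios turned from 0.63 to -0.32 and from -0.24 to 0.04 without DTT+TUDCA pool 1. bdi-miR171f_1ss20CT was 2.87-fold, tae-MIR171a-p5 2.49-fold and osa-miR171e-5p_2ss2GA21AG 2.23-fold higher, all with overlapping pools. Without DTT+TUDCA pool 1 the log2 ratios of these 3 turned from 1.52, 1.32 and 1.16 to -1.04, -0.78 and -0.92. The grass-enriched share in that pool was 15.2%, against 1.21% in pool 2 and 1.83% and 6.88% with DTT, and its part in these ratios was not tested.

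Of 19 measured entries, 5 lay at least 2-fold higher and 2 lay as far lower, against 40.2% higher and 3.46% lower among all 1099 measured entries. The median log2 ratio was 0.07 for the 19 and 0.72 for all. Besides the 3 named above, the higher entries were fve-MIR171d-p5_2ss2GA18AC and fve-MIR171d-p5_1ss2GA (the second chosen after its values were seen), which lack both motifs. fve-MIR171d-p5_2ss2GA18AC was at 27.7 and 6.19 with DTT+TUDCA, above both DTT pools. It was the only 1 of the 5 without overlap, which held for 7.55% of all entries. Of these 5, 0 were at least 2-fold higher without DTT+TUDCA pool 1, and the log2 ratio of fve-MIR171d-p5_2ss2GA18AC went from 1.67 to 0.29. The 1 entry higher without that pool (5.56% of all) was the passenger osa-miR171c-5p_L-1, named after its values were seen, which was at 3.13 and 2.88 with DTT and 4.26 and 8.77 with DTT+TUDCA. With all pools it was under the limit of 20 normalized reads. Without pool 2, 9 were higher (58.9% of all). The 2 lower entries were sbi-miR171g_1ss14CT, at 3.20 and 1.03, and ata-miR171b-3p_L+4_1ss16TC, listed at 0 and at 8.64. Without DTT+TUDCA pool 1 the log2 ratio of ata-miR171b-3p_L+4_1ss16TC went from -1.52 to -0.59. Without pool 2 it was -4.79, a value set by the pseudocount, since pool 1 lists the entry at 0. Both had pools that did not overlap with DTT, which held for 1.82% of all entries in that direction. The number of lower entries was 1 without DTT pool 1 and 4 without DTT pool 2, against 4.55% and 5.59% of all entries.

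The last comparison sets DTT+TUDCA beside control. tae-miR171a was 1.54-fold higher on the sums and osa-miR171a 1.05-fold higher, both with overlapping pools. Without DTT+TUDCA pool 1 the log2 ratio of tae-miR171a turned from 0.63 to -0.33, and without pool 2 that of osa-miR171a turned from 0.07 to -0.28. The passengers osa-miR171e-5p_2ss2GA21AG and tae-MIR171a-p5 were 3.20-fold and 2.56-fold higher, through DTT+TUDCA pool 1. Without that pool their log2 ratios turned from 1.68 and 1.36 to -0.40 and -0.74, and that of bdi-miR171f_1ss20CT from 0.79 to -1.78. zma-miR171b-3p_R+2_1 had a log2 ratio of -0.24 and aly-miR171c-5p of 0.41, with overlapping pools. The first was 0.10 without DTT+TUDCA pool 1, and the second was -0.16 without pool 2.

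Of 16 measured entries, 3 lay at least 2-fold higher and 0 lay as far lower, against 41.4% and 6.05% of all 1107 measured entries. The remaining higher entry was fve-MIR171d-p5_1ss2GA, chosen after its values were seen. All 3 had overlapping pools, while 13.6% of all entries were higher without overlap (5.24% were lower without overlap). Of these 3, 0 were at least 2-fold higher without DTT+TUDCA pool 1. Without DTT+TUDCA pool 2, 8 entries were higher (53.7% of all), and without control pool 2, 5 were (45.3%). Without DTT+TUDCA pool 1 or control pool 1, 1 entry was lower, against 23.9% and 7.61% of all. The median log2 ratio was 0.46 for the 16 entries and 0.66 for all. The grass-enriched share was 15.2% and 1.21% with DTT+TUDCA and 1.73% and 5.47% in control, and its part was not tested. Comparisons with shared samples are not independent of each other.

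**Figure D4:**
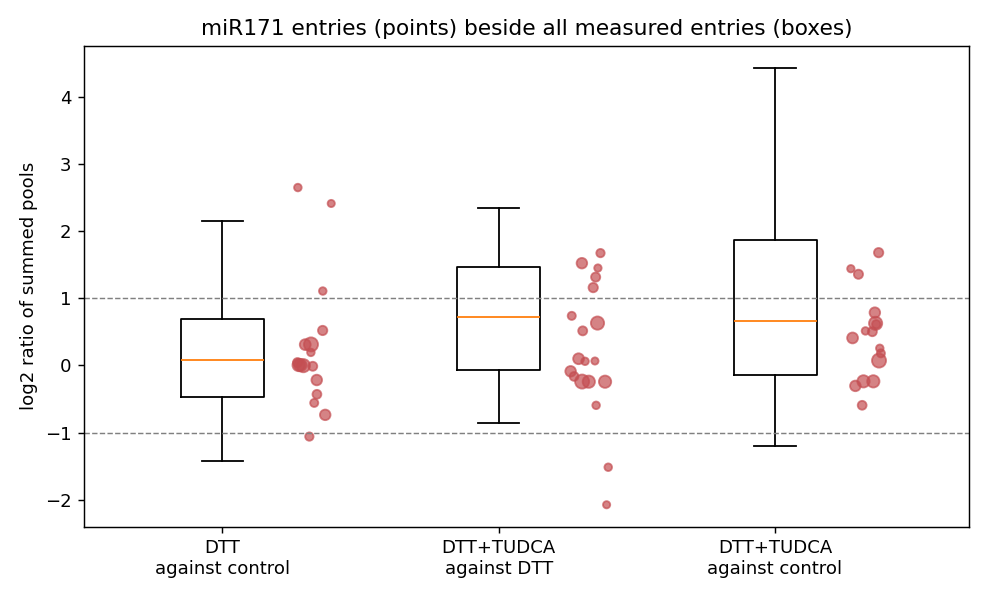
Log2 ratios of the summed pools for the measured miR171 entries (red points, larger for higher means) beside all measured entries in 3 comparisons. Boxes give the median and quartiles of all entries, whiskers the percentiles 5 and 95, and dashed lines the 2-fold limit. The medians of the miR171 entries are 0.01, 0.07 and 0.46, against 0.08, 0.72 and 0.66 for all entries.

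miR170, which targets the same SCL mRNAs as miR171 in Arabidopsis, carries its own family number and is close in sequence.
aly-miR170-3p: tGATTGAGccgtgtcaatatc
It differs from tae-miR171a by C14T and shares its seed. aly-miR170-3p was at 2164 and 1762 normalized reads in control, 2625 and 1950 under DTT, and 1348 and 1962 under DTT+TUDCA, and the treatments overlap. It was thus above tae-miR171a in 5 pools and below it in DTT+TUDCA pool 1, and it was 0.520 to 0.721 of osa-miR171a in all 6 pools. Of the measured miR170 entries, 0 were at least 2-fold higher in any comparison, and 1 was lower in each, of 6, 5 and 6 measured. Among those measured, aly-miR170-3p_L+1_1 and aly-miR170-3p_L+1_2 hold the same values in every pool, so the same reads are counted under both names. Among all measured entries, 16.8%, 40.2% and 41.4% were higher and 10.2%, 3.46% and 6.05% were lower. The lower entry was aly-miR170-3p_L-2 in both comparisons with control and aly-miR170-3p_L+2 in the other (both named after their values were seen). aly-miR170-3p_L-2 was at 12.6 and 5.09 normalized reads in control, listed at 0 and at 4.32 under DTT, and at 4.26 and 2.58 under DTT+TUDCA. aly-miR170-3p_L+2 was at 4.71 and listed at 0 in control, at 7.31 and 7.20 under DTT, and at 2.13 and 4.13 under DTT+TUDCA.

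Other conserved families that target transcription factors, such as miR156, miR166, miR172 and miR396, were counted as a list of 367 entries. Between DTT and control, 27 of 219 were at least 2-fold higher and 18 were lower (median log2 ratio 0.04). Between DTT+TUDCA and DTT, 70 of 235 were higher and 4 were lower (median 0.31), and between DTT+TUDCA and control 62 of 235 were higher and 12 lower (median 0.32). Across all measured entries, 16.8%, 40.2% and 41.4% were higher and 10.2%, 3.46% and 6.05% were lower, in the same order of comparisons. The sum of the miR166 family, whose main entry varied like osa-miR171a, had log2 ratios of 0.22, -0.19 and 0.02 in these comparisons. For the miR171 sum they were 0.19, -0.005 and 0.19.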

How the data were processed

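Small RNA libraries were made with a TruSeq kit and read as 50-base single ends, per the labels' protocols. The deposited values are signal, namely normalized reads in 6 columns per the file headers. No source used here states the alignment, counting or filtering steps, or how values were normalized. The worth of 1 read in a pool was its most frequent value over the lowest integer for which at least 90% of values above 0 came out whole. Within 0.01 reads, 94.7% to 97.2% of the values were whole. Fractions and the single sample per treatment left no count test. A listed 0 gives no upper limit.

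The 1969 rows became 1896 distinct sequences, named by the registered form first, then wheat, Aegilops and other grasses. The 2 pools were summed, and an entry counted as measured when its 4 pools held 20 or more normalized reads. Calls used 2-fold with a pseudocount of 1. The steps were tested on simulated pools with planted changes above 2-fold and counting noise alone. Such pools lack the differences in makeup between the real pools, so the rate of false calls here was not measured. Members and lists were chosen with earlier results of these data known. Named entries are the 8 most abundant, all tae or ata names, and up to 6 past 2-fold without overlap per comparison. Others named are examples or were chosen after their values were seen. Python 3.11.15, pandas 2.3.3 and numpy 2.4.6 were used.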

Additional observations from a re-analysis of the deposited data

How the results depend on the processing

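The log2 ratio of the family sum moved from its main value by no more than the spread between pools under the alternatives run. For leaving out 1 pool this cannot show stability, because the spread comes from the same pools. The size of the ratio, and in 2 comparisons its sign, depended on single pools. Leaving out 1 pool gave -0.04 to 0.39 for DTT against control, -0.20 to 0.23 for DTT+TUDCA against DTT, and 0.08 to 0.30 for DTT+TUDCA against control. Counts of entries past 2-fold were small and moved with most choices, and the share of all entries often moved too (given in brackets). The cause was not tested beyond what each alternative changes. Leaving out 1 pool gave 2 to 4 higher (17.6% to 24.7% of all) and 0 to 3 lower (10.5% to 18.9%) for DTT against control. For DTT+TUDCA against DTT it gave 1 to 9 (5.56% to 58.9%) and 1 to 4 (4.55% to 22.6%), and against control 2 to 8 (15.0% to 53.7%) and 0 to 1 (7.61% to 23.9%).

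For DTT against control, the 1 lower entry became 0 with the grass-enriched list scaling (106 of 1055), a pseudocount of 5 (7.41%), grass names alone (8.54%), members with a motif alone (10.1%, added after seeing the data), a floor of 100 (4.33%) or pools without overlap (8.14%), and 2 with no floor (13.3%) or a 1.5-fold limit (20.5%). The 3 higher became 9 with no floor (28.3%) and 0 with a floor of 100 (17.1%). For DTT+TUDCA against DTT, the 5 higher became 3 with median-of-ratios (28.7%), grass names alone (64.8%) or members with a motif alone (40.1%). They became 1 with the grass-enriched list scaling (7.84%) or pools without overlap (7.55%), 12 with no floor (42.2%) and 2 with a floor of 100 (39.0%). The 2 lower became 0 with a floor of 100 (2.16%). For DTT+TUDCA against control, the 3 higher became 10 with no floor (47.5%), 1 with a floor of 100 (42.8%), 6 with a 1.5-fold limit (52.1%) and 0 with pools without overlap (13.6%), and the 0 lower became 1 with a 1.5-fold limit (13.1%). With the grass-enriched list scaling (19.8%), other entries took the place of these 3. They were ata-miR171b-3p_L+4_1ss16TC, osa-miR171c-5p_L-1 and aly-miR171b-3p_L+1R+1.

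In DTT+TUDCA against DTT, the log2 ratios of bdi-miR171f_1ss20CT, osa-miR171e-5p_2ss2GA21AG and tae-MIR171a-p5 turned to -0.094, -0.019 and -0.091 with the grass-enriched list scaling. Leaving out 1 pool gave -1.04 to 2.40, -0.92 to 2.06 and -0.78 to 2.14, each lowest without DTT+TUDCA pool 1. Against control, osa-miR171e-5p_2ss2GA21AG and tae-MIR171a-p5 ranged from -0.40 to 2.50 and from -0.74 to 2.18, again lowest without that pool. Entries of a few reads per pool set the depth limit of these counts. No paired analysis was possible because each treatment is 1 sample.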
